A study of Mus musculus with 63 samples.

Results

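Astrocytes and microglia were sorted by FACS from the cortex of the same mice, so each animal gave a pair of libraries that differ in cell type and share treatment, age and handling up to the sorter. Pairs were taken from the mouse numbers in the sample titles: every number with both an astrocyte and a microglia library was used except mouse 3, which the study set aside for skin ulceration, and this left 30 of the 63 libraries of the series, from 15 mice. The mice were female C57BL/6J animals, 12 weeks old. In 8 of them (mice 2, 7, 10 and 20 to 24) hot metal was held against the shaved flank, which gave a full thickness burn of 7-8% of body surface, and in 7 (mice 8, 13 and 15 to 19) the flank was shaved and not burned. All of them, sham mice included, had received bilateral injections into the motor cortex of adeno-associated viruses that label neurons with eGFP (AAV5-CamKII-eGFP) and mRuby2 (AAV1-mDlx-mRuby2), together with surgery, anaesthesia and analgesia. The glia came from cortex behind the injected area, 5 weeks after surgery, and were dissociated with enzymes and depleted of myelin before staining. Astrocytes were gated as ACSA2 positive and microglia as CD11b positive, and CD11b was the only myeloid antigen stained, so the gate does not part microglia from other CD11b-positive cells.

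Astrocytes descend from neural progenitors. They take up glutamate and GABA after synaptic release, buffer potassium and water, supply lactate and lipids to neurons, and are joined by gap junctions. Microglia descend from yolk sac progenitors, are the resident macrophages of brain tissue, and survive through signals of the receptor Csf1r. They survey the tissue with purinergic receptors and clear debris through phagocytic receptors and lysosomes.

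Total counts ran from 18295895 to 35719027 per astrocyte library (median 28437618) and from 16531118 to 54802103 per microglia library (median 25530983). At these depths 3 counts, the most that a count of 0 allows, were worth 0.0840 to 0.164 CPM (counts scaled to the total of the library) in astrocytes and 0.0547 to 0.181 CPM in microglia. These limits cover counting error only. The study's sample sheet put 4 of the mice in sequencing batch 1 (3 burn, 1 sham), 1 sham mouse, mouse 13, in batch 2, and 10 in batch 3 (5 burn, 5 sham). Across genes, log2(CPM + 1) of an astrocyte and a microglia library correlated with an r of 0.725 to 0.772, against 0.948 to 0.992 between astrocyte libraries and 0.975 to 0.994 between microglia libraries. The astrocyte library of mouse 13 stood apart in neuronal and oligodendrocyte genes: its summed CPM of 8 excitatory neuron markers was 1581, against 17.4 to 266 in the other 14 astrocyte libraries. Every list below was also counted without mouse 13, which moved the count of called genes in 7 of the 36 lists, in each by 1 gene except for the ribosomal proteins.

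The 2 cell types were compared gene by gene with edgeR's quasi-likelihood test on the counts, with the mouse as a block and Benjamini-Hochberg adjustment over 30696 genes. A log2 fold change (log2FC) above 0 means a higher level in astrocytes. A gene was called where its adjusted p did not exceed 0.05 and the log2FC was 1 or more, or -1 or less. By this rule 8340 genes were higher in astrocytes, which is 27.2% of all genes tested, and 5937 were higher in microglia, or 19.3%. Under edgeR's filterByExpr, a stricter filter on low counts that tests fewer genes, the counts were 5430 and 4973. The median log2FC over all genes was 0.23. In 4213 genes, or 13.7%, every astrocyte library lay above every microglia library, and in 3623, or 11.8%, the reverse held. The differences were often very large: 2504 genes were called at a log2FC of 6 or more and 1216 at -6 or less. Genes called higher in astrocytes took a median of 57.0% of the counts of an astrocyte library and 7.90% of those of a microglia library, and genes called higher in microglia took 8.72% and 53.5%. A further 5349 genes had a 95% interval of the log2FC that lay within -1 and 1. Fewer cells of a type in a gate and less RNA of a gene per cell cannot be told apart in such bulk libraries.

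**Figure D1:**
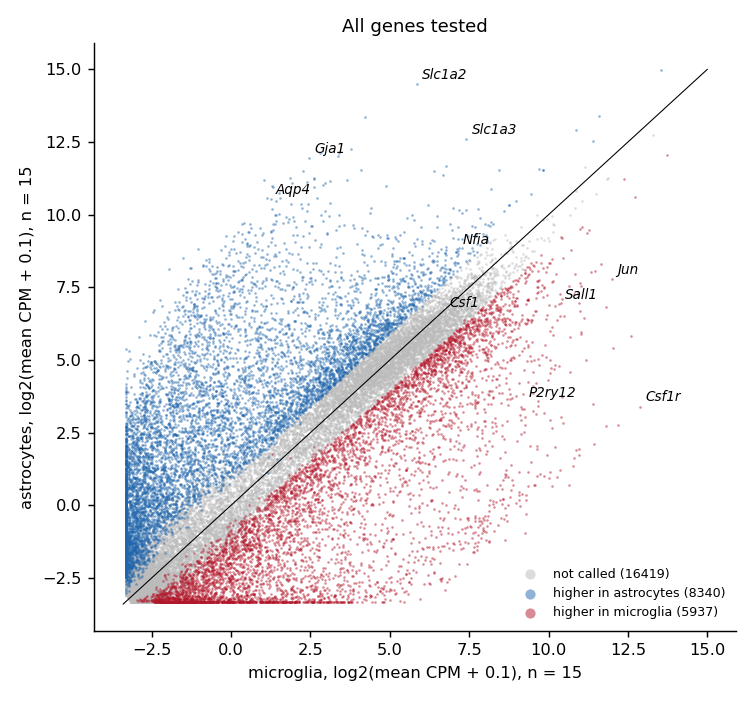
Mean level in the 15 astrocyte libraries (vertical axis) against mean level in the 15 microglia libraries (horizontal axis) of all 30696 genes tested, both as log2(mean CPM + 0.1), coloured by call, with genes described in the text named and the line of equal levels drawn. The 8340 genes called in astrocytes lie above the line, many of them along the left edge where microglia had few counts or none, and the 5937 called in microglia lie below it.

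The genes that define the 2 cell types separated the gates in every mouse. Slc1a2, the main glutamate transporter of astrocytes, was found at 18652 to 28324 CPM (median 22578) in astrocyte libraries and at 29.0 to 96.7 CPM (median 49.0) in microglia libraries. Its log2FC was 8.84 (SE 0.22, adjusted p = 1.89e-17). Aqp4, the water channel of astrocyte endfeet, ran from 1107 to 1766 CPM (median 1503) against 0 to 4.95 CPM (median 2.42), a log2FC of 9.83 (SE 0.47, adjusted p = 4.23e-13). For both genes the lowest astrocyte library was far above the highest microglia library.

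The microglial genes mirrored this. Csf1r, the receptor on which microglia depend for survival, ran from 5358 to 9727 CPM (median 7536) in microglia and from 0.197 to 35.5 CPM (median 8.58) in astrocytes (log2FC -9.90, SE 0.58, adjusted p = 9.62e-12). P2ry12, the ADP receptor of surveying microglia, ran from 2111 to 3347 CPM (median 2572) in microglia and from 4.55 to 17.0 CPM (median 10.4) in astrocytes (log2FC -7.96, SE 0.22, adjusted p = 7.76e-17). No library of either type entered the range of the other. Of the 16 astrocyte markers listed, 16 were called in astrocytes with a median log2FC of 9.08, and of the 18 microglia markers 18 were called in microglia with a median of -9.63. In the 4 mice of batch 1 the medians were 10.26 and -11.59, and in the 10 of batch 3 they were 8.53 and -8.92.

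The antigens of the gates were themselves separated. Atp1b2, the sodium pump subunit that carries the ACSA2 epitope, ran from 1794 to 3710.0 CPM (median 3034) in astrocytes against 1.02 to 9.97 CPM (median 4.34) in microglia (log2FC 9.59 ± 0.28, SE). Itgam, which encodes CD11b, ran from 176 to 251 CPM (median 229.7) in microglia and was at a median of 0 CPM in astrocytes, with 4.62 CPM in the highest library, that of mouse 20 (log2FC -9.39 ± 0.60). Since the cells were chosen by these proteins, the transcripts check the labels and are no finding.

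**Figure D2:**
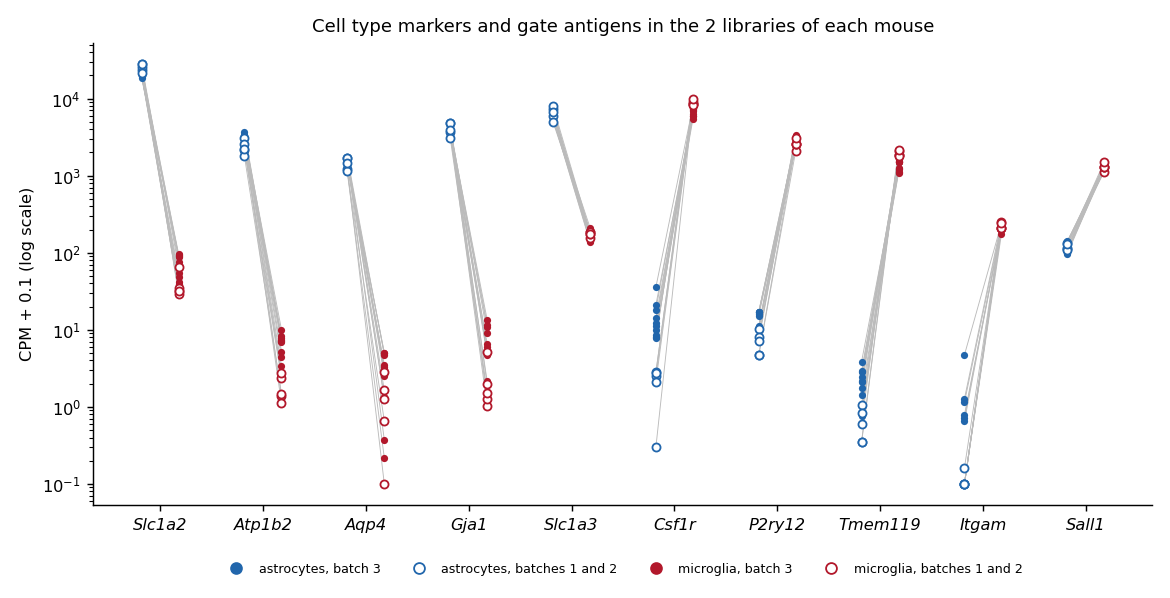
CPM + 0.1 (log axis) of 10 marker and gate antigen genes in the astrocyte (blue) and the microglia (red) library of each of the 15 mice, with a line joining the libraries of a mouse, filled points for batch 3 and open points for batches 1 and 2. The lines of a gene all run the same way, and the astrocyte values of Csf1r lie higher in batch 3 (7.65 to 35.5 CPM) than in batches 1 and 2 (0.197 to 2.7 CPM).

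Among the most abundant of the strongly different genes were the glutamate transporters in astrocytes and Csf1r and Cx3cr1 in microglia. By the naming rule (the 10 genes of highest mean CPM at an absolute log2FC of 3 or more), the genes on the astrocyte side included Slc1a2 and Slc1a3, both glutamate transporters, Gja1, the connexin of astrocyte gap junctions, the secreted proteins Sparcl1, Clu and Mfge8, the glycolytic enzyme Aldoc, and the lipid enzymes Plpp3 and Scd2. Their log2FC ran from 4.97 for Scd2 to 10.02 for Gja1. The microglia side included Csf1r, the fractalkine receptor Cx3cr1, the lysosomal proteins Ctss and Laptm5, the transcription factors Jun and Egr1, and Kctd12, Serinc3 and Rhob, from -3.27 for Serinc3 to -9.90 for Cx3cr1. Each of the genes named here differed in the same direction in 15 of 15 mice.

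The largest folds among genes of at least 50 CPM belonged on the astrocyte side to Fzd2, a Wnt receptor, with 210.1 to 327 CPM (median 288) against 0 to 0.726 CPM (median 0), a log2FC of 11.19. Lgr6, an R-spondin receptor (10.80), Ppp1r3g, which directs protein phosphatase to glycogen (10.75), Hapln1, a link protein of the hyaluronan matrix (10.70), and the receptor gene Gpr37l1 (10.65) followed. On the microglia side Ccl6, a chemokine, had 46.7 to 85.2 CPM (median 62.4) against 0 to 0.0919 CPM (median 0), with 3 counts in all 15 astrocyte libraries together and a log2FC of -12.30. The receptors of the complement fragment C5a, C5ar2 (-11.42) and C5ar1 (-10.87), the Fc receptor Fcgr3 (-10.74) and Susd3 (-10.73) came next. No library overlapped between the types in any of these 10 genes.

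A set of 1063 genes called in astrocytes had no count in any microglia library, and 627 called in microglia had none in any astrocyte library. For these a fold can only be bounded, taking 3 counts over the 15 libraries of the empty type. Fgr, a Src family kinase of myeloid cells, had 4930 counts in microglia and none in astrocytes, at least 1503-fold higher. The Fc receptor Fcgr4 was at least 908-fold higher and Tlr8, an endosomal sensor of RNA, at least 920.3-fold higher in microglia.

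Functions were described with 22 lists holding 576 genes tested. For each list the counts of called genes stand beside the shares of all genes given above, 27.2% and 19.3%. Those shares include many genes with few counts. Of the 5658 genes with a mean of at least 50 CPM in either type, 1642 were called in astrocytes and 1600 in microglia. Among these 5658, every astrocyte library lay above every microglia library in 1791 genes, and the reverse held in 2091.

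**Figure D3:**
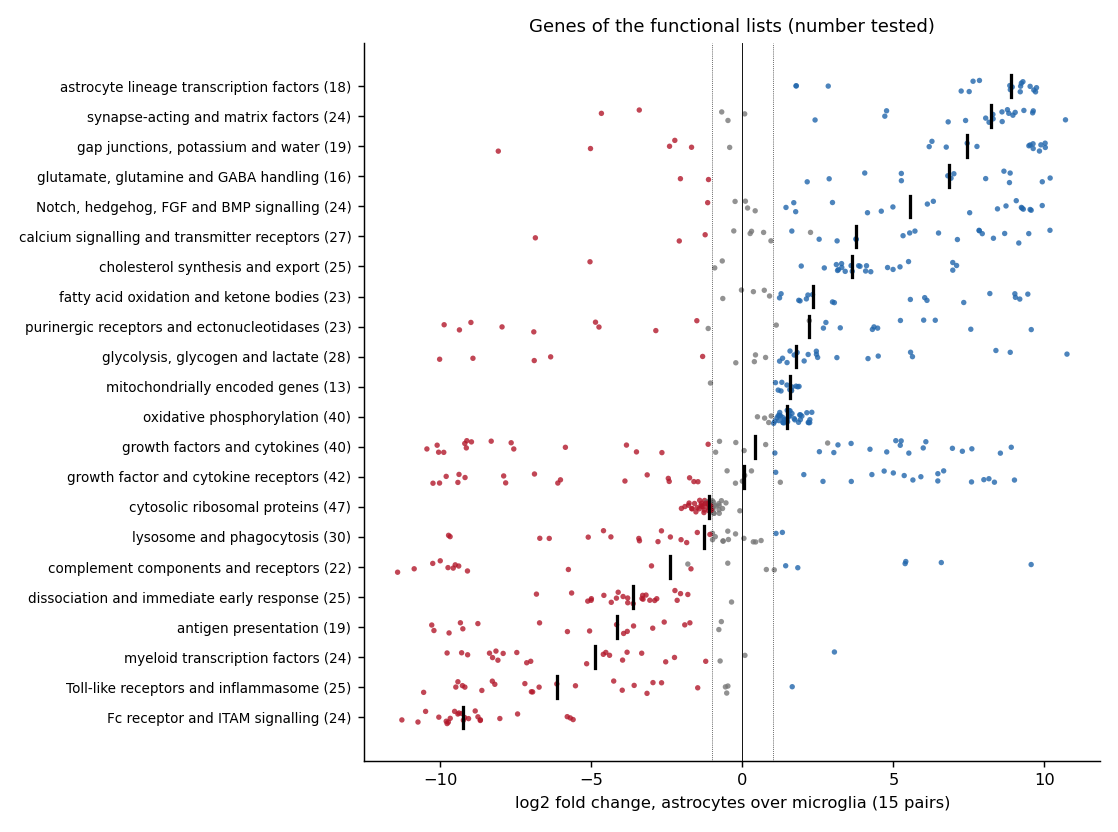
Log2FC of astrocytes over microglia (horizontal axis, 15 pairs) of every tested gene of the 22 functional lists, 1 list a line, coloured by call, with a black bar at the median of the list and dotted lines at -1 and 1. Fc receptor and ITAM genes lie wholly on the microglia side (median -9.26) and astrocyte transcription factors wholly on the astrocyte side (median 8.90), while the receptors of growth factors and cytokines are spread over both sides with a median of 0.04.

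Genes for the uptake and recycling of transmitter were mostly higher in astrocytes. Of 16 genes for handling glutamate, glutamine and GABA, 14 were higher in astrocytes and 2 in microglia, with a median log2FC of 6.85. The GABA transporter Slc6a11 ran from 1249 to 3336 CPM (median 1802) in astrocytes against 0 to 6.48 CPM (median 2.46) in microglia (log2FC 10.19 ± 0.47, SE). Slc7a11, the cystine/glutamate exchanger, was at medians of 939.8 and 8.62 CPM (log2FC 7.00). Glul, glutamine synthetase, was a different case: it ran from 6365 to 9147 CPM (median 7902) in astrocytes but also from 1538 to 2191 CPM (median 1876) in microglia, so that its log2FC was only 2.14 ± 0.08. The genes higher in microglia included the glutamine carrier Slc38a1 (-1.12), whose ranges of 8.23 to 145 CPM in astrocytes and 138 to 185 CPM in microglia overlapped and whose call was lost without mouse 2 (log2FC -0.95) or mouse 13 (-0.99), in batch 3 alone (-0.65) and in sham mice alone (-0.86).

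Gap junction, potassium and water genes were mostly higher in astrocytes. Of 19 genes 13 were higher in astrocytes and 5 in microglia (median log2FC 7.44). The connexins Gja1, Gjb6 (10.03) and Gjb2 (7.77) and the water channel Aqp4 stood on the astrocyte side. The inward rectifier Kcnj10, which clears potassium, was at medians of 795 and 11.7 CPM (log2FC 6.18). Among the K2P background potassium channels, Kcnk1 (9.88) and Kcnk2 (7.44) were higher in astrocytes, and Kcnk6 (-8.08) and Kcnk13 (-5.03) in microglia. Kcnk13, which encodes THIK-1, the background potassium channel of microglia, ran from 26.8 to 49.9 CPM (median 42.8) in microglia and from 0 to 5.01 CPM (median 1.45) in astrocytes. Slc12a2, a sodium, potassium and chloride cotransporter, was higher in microglia (-2.41).

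Most genes of glycolysis were higher in astrocytes, but the genes for sugar entry were divided between the 2 types. Of 28 genes for glycolysis, glycogen and lactate 19 were higher in astrocytes, 5 in microglia and 4 were not called (median log2FC 1.76). The glucose transporter Slc2a1 ran from 293 to 514 CPM (median 410.0) in astrocytes against 57.3 to 108 CPM (median 83) in microglia (log2FC 2.45). Slc2a5, whose protein carries fructose, was nearly absent from astrocytes, at 0 to 3.70 CPM (median 0.0887), and ran from 309.7 to 506 CPM (median 418) in microglia (log2FC -10.03 ± 0.61, SE). Hexokinases were divided in the same manner: Hk1 was higher in astrocytes, with medians of 190.5 and 46.1 CPM (log2FC 2.04), and Hk2 (4.48 and 398 CPM, log2FC -6.35) and Hk3 (-8.92) in microglia. So were the lactate carriers, with Slc16a1 (2.45) higher in astrocytes and Slc16a3 (-6.89) in microglia. Pkm, pyruvate kinase, and Ldha, lactate dehydrogenase A, were not called, and the 95% intervals of their log2FC were 0.62 to 0.91 and 0.27 to 0.59. The other genes not called were Pfkl, a phosphofructokinase (-0.22), and Gbe1, the glycogen branching enzyme (0.39). Genes of glycogen that were higher in astrocytes included Pygb, a glycogen phosphorylase (4.16), and Ppp1r3c (8.39), a relative of the Ppp1r3g named above.

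Genes of mitochondrial fuel use were also mostly higher in astrocytes. Of 23 genes for fatty acid oxidation and ketone bodies 18 were called in astrocytes and 0 in microglia (median log2FC 2.32), and 20 had no overlap between the types. The acyl-CoA synthetases Acsl6 (9.45) and Acsl3 (7.33), which activate fatty acids, were among its most abundant called members. The nuclear receptor Ppara ran from 18.1 to 38.7 CPM (median 30.4) against 0 to 0.545 CPM (median 0) (log2FC 9.02), and its coactivator Ppargc1a, which drives mitochondrial biogenesis, from 121 to 162 CPM (median 140.4) against 0 to 1.30 CPM (median 0.126) (log2FC 9.18). Bdh1, an enzyme of ketone bodies, was also higher in astrocytes (8.19). For the nuclear genes of oxidative phosphorylation the difference was smaller and broad: 36 of 40 were called in astrocytes, 0 in microglia, with a median log2FC of 1.49 and a range from 0.50 to 2.30, and 32 had no overlap. Of 13 genes of the mitochondrial genome 11 were called in astrocytes (median 1.57), and 3 of the 13 had no overlap, beside 13.7% of all genes. In batch 3 alone 8 of 13 were called (median 1.10), and in batch 1 alone 12 of the 12 tested (median 1.65). The mitochondrial share of counts was 0.940 to 2.51% in astrocyte libraries and 0.326 to 0.753% in microglia libraries, ranges that did not overlap.

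Genes of cholesterol synthesis stood almost entirely on the astrocyte side. Of 25 genes for cholesterol synthesis and export 22 were higher in astrocytes, 1 in microglia and 2 were not called, with a median log2FC of 3.64. Of the enzymes called, Pmvk, a mevalonate pathway kinase, had the smallest log2FC, at 1.95. Ebp, a sterol isomerase, at -0.92, was the only enzyme of the list below 0 and was not called, but it was called in microglia by DESeq2 and with its size factors, just past the threshold in both, under edgeR's filterByExpr, a stricter filter on low counts (-1.10), and in batch 1 alone (-1.27). Srebf2, the transcription factor that drives the pathway, ran from 485 to 670.5 CPM (median 558) in astrocytes against 43.6 to 66.7 CPM (median 56.9) in microglia (log2FC 3.40 ± 0.08, SE). Apoe, the main lipid carrier protein of the brain, ran from 1479.9 to 4298 CPM (median 3185) and 125 to 587 CPM (median 323), so microglia held it well above 0 too (log2FC 3.29). The exporters went the other way or did not differ by the rule. Abcg1, which hands cholesterol to lipoprotein particles, ran from 178 to 309.8 CPM (median 251) in microglia against 4.26 to 14.2 CPM (median 6.95) in astrocytes (log2FC -5.05 ± 0.14). Abca1, which loads cholesterol onto apolipoproteins, was not called at -0.67 ± 0.09, although every microglia library (883 CPM or more) lay above every astrocyte library (810.2 CPM or less). In the 4 mice of batch 1 alone it was called, at -1.001.

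Genes of developmental signalling were mostly higher in astrocytes. Of 24 genes of Notch, hedgehog, FGF and BMP signalling 19 were higher in astrocytes, 1 in microglia and 4 were not called (median log2FC 5.55). The FGF receptor Fgfr3 ran from 1463 to 2046 CPM (median 1652) against 0.146 to 7.99 CPM (median 1.66) (log2FC 9.93). Ptch1, the hedgehog receptor and itself a hedgehog target, was at medians of 586 and 35.3 CPM (log2FC 4.14). Notch1 (1.76) was higher in astrocytes, but Notch2 was found at 372 to 540.4 CPM (median 487) in astrocytes and 359.6 to 551 CPM (median 449.8) in microglia and had a log2FC of 0.17 with an interval from 0.01 to 0.33. The gene called in microglia was Rbpj (-1.15), the DNA-binding partner of the Notch receptors.

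All 18 astrocyte lineage transcription factors listed were higher in astrocytes, with a median log2FC of 8.90, and 18 had no overlap. Sox9, a determinant of astrocyte fate, ran from 596 to 881 CPM (median 736) against 0 to 5.63 CPM (median 1.20) (log2FC 9.20). The smallest difference belonged to Nfia, a factor of gliogenesis, with 379.9 to 514 CPM (median 449) against 113 to 165 CPM (median 138) (log2FC 1.77), and Nfix (1.78) was close to it, both with clear levels in microglia. Olig1 and Olig2, factors best known from the oligodendrocyte lineage, were at medians of 79.1 and 45.5 CPM in astrocytes and 0.548 and 0.104 CPM in microglia (log2FC 7.13 and 7.70). The 8 oligodendrocyte precursor markers, a list that holds Olig1 and Olig2 too, summed to 158 to 224 CPM in the same astrocyte libraries. Among its other members Cspg4 was at a median of 46.2 CPM there, Tnr at 12.9, Pdgfra at 4.33 and Sox10 at 1.48 CPM.

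Of 24 secreted or surface factors that act on synapses and matrix 19 were higher in astrocytes and 2 in microglia (median log2FC 8.23). The matricellular relatives Sparcl1 and Sparc split: Sparcl1, which promotes excitatory synapses, ran from 3211 to 6098 CPM (median 4987) in astrocytes against 4.4 to 25.7 CPM (median 12.8) in microglia (log2FC 8.77), and Sparc, which opposes it, from 80.4 to 419.6 CPM (median 186) against 1622 to 2599 CPM (median 2006) (log2FC -3.42). Thbs1, a thrombospondin, was the other gene on the microglia side, with 30.8 to 112 CPM (median 45.4) against 0 to 7.70 CPM (median 2.68) (log2FC -4.67). Bcan, a proteoglycan of the perineuronal matrix (9.03), was higher in astrocytes. Phagocytic receptors did not all follow: Megf10 was higher in astrocytes (354 to 485 CPM (median 427) against 0 to 2.68 CPM (median 0.548), log2FC 9.61), whereas Mertk (-0.48) and Lrp1 (-0.69) were not called and yet had every microglia library above every astrocyte library.

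Transmitter receptors and calcium genes were found chiefly in astrocytes, with 18 of 27 called there, 3 in microglia and 6 not called. Their median log2FC was 3.77, or 3.97 with Htr2b, which had no count in microglia and lost its call without any 1 of mice 2, 7, 8, 10, 23 and 24, in batch 1, batch 3 and burn mice alone and with DESeq2, at its bound. Grm3, a metabotropic glutamate receptor, was at 546 to 926 CPM (median 706) against 1.22 to 3.82 CPM (median 2.37) (log2FC 8.31), and Grin2c, an NMDA receptor subunit, at medians of 813 and 1.83 CPM (8.68). Gabbr1, a GABA-B receptor subunit, was at 759 and 144 CPM (2.54). Adra1a, an alpha-adrenergic receptor, had a log2FC of 7.84. The inositol trisphosphate receptor Itpr3 (-2.09) and Orai1, a store-operated calcium channel (-1.23), were higher in microglia.

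Of 24 myeloid transcription factors 21 were higher in microglia, 1 in astrocytes and 2 were not called (median log2FC -4.88). Spi1, which encodes PU.1, the factor that sets up the macrophage lineage, had 180.4 to 239 CPM (median 211) in microglia and a median of 0 CPM in astrocytes, with 2.01 CPM at most (log2FC -9.78). Its partner Irf8 (-9.10) and Runx1 (-8.27) were also close to 0 in astrocytes. Sall1, a zinc finger factor known from microglial identity, was not: it ran from 96.1 to 142 CPM (median 123) in astrocytes against 1126 to 1518 CPM (median 1285) in microglia (log2FC -3.34 ± 0.08, SE), and its relative Sall3 from 70.9 to 143 CPM (median 114) against 209 to 306 CPM (median 255) (log2FC -1.22). The exception in direction was Nr1h3, which encodes the sterol sensor LXR alpha, with 4.37 to 13.7 CPM (median 9.24) in astrocytes against 0.475 to 2.41 CPM (median 1.20) in microglia (log2FC 3.05). Etv5, at 0.08, and Bhlhe41, at -0.74, were the members that were not called.

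Fc receptor and ITAM signalling, the pathway from antibody-binding and lipid-binding receptors to phagocytosis, was called in microglia in all 24 of 24 genes tested, with a median log2FC of -9.26, and none of the 24 overlapped between the types. Trem2, a receptor for lipids and debris, ran from 423 to 620.4 CPM (median 497) in microglia and from 0 to 2.72 CPM (median 0.774) in astrocytes (log2FC -9.39). Its adaptor Tyrobp, which carries the ITAM, ran from 282 to 412 CPM (median 335) and 0 to 2.46 CPM (median 0.227) (log2FC -9.68). The phosphatase Inpp5d, which limits phosphoinositide signals, ran from 1155 to 1526 CPM (median 1342) and 1.69 to 16.0 CPM (median 7.44) (log2FC -7.44), and the exchange factor Vav1 from 338 to 402 CPM (median 375) and 0 to 2.90 CPM (median 1.06) (log2FC -8.76). Ptprc (-9.42), Cd33 (-9.74) and the tetraspanin Cd37 (-9.07) were of the same order.

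RefSeq promoters (250 bases before to 50 after a start, GRCm38.p6) were at hand for 19 of these 24 genes, matched by symbol. In 6 of them, Cd37, Cd53, Fcgr4, Inpp5d, Pik3cg and Vav1, the window held GAGGAAGT, letters that PU.1 is known to bind, on either strand. The 100 bases before the start are shown for the 4 of these whose match lies in that stretch, since there the letters can be seen beside the start. They are written 5′ to 3′ on the strand of the gene, with the letters in capitals as GAGGAAGT or as the reverse complement ACTTCCTC.
Cd37 (chr7:45238840-45238939, minus strand): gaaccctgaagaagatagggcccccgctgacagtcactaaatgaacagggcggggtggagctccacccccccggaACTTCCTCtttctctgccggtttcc
Fcgr4 (chr1:171018826-171018925, plus strand): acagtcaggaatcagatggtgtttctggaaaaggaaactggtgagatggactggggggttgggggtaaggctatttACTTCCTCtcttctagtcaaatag
Inpp5d (chr1:87620212-87620311, plus strand): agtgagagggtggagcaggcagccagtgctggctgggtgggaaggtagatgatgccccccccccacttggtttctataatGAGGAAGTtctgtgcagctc
Vav1 (chr17:57279000-57279099, plus strand): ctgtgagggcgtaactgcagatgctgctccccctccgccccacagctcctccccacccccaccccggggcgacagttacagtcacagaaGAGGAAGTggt
The match began at position -25 in Cd37 and -24 in Fcgr4, on the strand opposite to the gene, and at -20 in Inpp5d and -11 in Vav1, on the strand of the gene. A promoter was in the table for 1578 of the 3349 symbols called with a log2FC of -3 or less. This held for 3059 of the 5604 symbols called at 3 or more and 15095 of the 30677 symbols tested. The shares cover those symbols only. On the microglia side 155 of 1973 promoters held these letters, or 7.86%. The share was 1.71% in the 3975 promoters of the astrocyte side, 3.09% in the 19077 of the genes tested that matched and 3.20% in all 32851 of the table. Of the promoters with the letters, 51.0% of those on the microglia side, 39.7% on the astrocyte side and 41.9% over the genes tested had them within 50 bases of the start. Letters of other factors differed less: TGTGGTTT (RUNX) was in 2.53%, 1.36% and 1.43% of the microglia side, astrocyte side and all tested promoters, TGAGTCA (AP-1) in 6.59%, 4.65% and 4.37%, GTTGCCA (RFX) in 3.55%, 4.98% and 4.15%, and TTGGCA (NFI) in 13.2%, 14.2% and 12.5%. ACAATGG (SOX) was in 2.79%, 2.87% and 2.57%, GAAACTGA (IRF) in 2.33%, 1.86% and 1.81%, and TTGCGCAA (CEBP) in 0.152%, 0.126% and 0.246%. All were searched on both strands, several starts of a gene count as several promoters, and a match is a description of letters, not of binding.

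Genes of innate sensing were mostly higher in microglia. Of 25 Toll-like receptor and inflammasome genes 21 were higher in microglia, 1 in astrocytes and 3 were not called (median log2FC -6.15). Nlrp3, the sensor of the inflammasome (-9.19), Unc93b1, the chaperone of endosomal Toll-like receptors (-6.73), and Tlr7, an endosomal RNA sensor (-9.49), lay far to the microglia side. Tlr3, the sensor of double-stranded RNA, was the exception, with 204 to 369.9 CPM (median 302) in astrocytes against 80.8 to 119.9 CPM (median 99.98) in microglia (log2FC 1.65 ± 0.09, SE). Its ranges did not overlap.

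Of 22 complement genes tested 12 were higher in microglia, 6 in astrocytes and 4 were not called, beside 19.3% and 27.2% of all genes. Their median log2FC was -2.41, with -3.38 in batch 3, -5.38 in batch 1, -3.42 in burn mice and -4.56 under filterByExpr. C1qa, a chain of the initiating complex C1q, ran from 1036 to 1772 CPM (median 1289) in microglia and 0 to 9.39 CPM (median 1.97) in astrocytes (log2FC -9.58), and C1qb and C1qc were similar (-9.51 and -9.75). On the astrocyte side were Clu, a secreted chaperone and complement inhibitor (9.56), and C4b, a component downstream of C1q, with 68.0 to 234 CPM (median 113) against 10.3 to 94.0 CPM (median 29.8) (log2FC 1.83), where the ranges overlapped. C3, the central component, was called in microglia at -1.70 ± 0.68 with wide ranges of 0 to 17.6 CPM in astrocytes and 3.20 to 61.0 CPM in microglia. That call was lost without any 1 of mice 7, 8, 10, 13, 16, 21 and 22, with a log2FC of -1.47 to -1.70, and in batch 3 alone (-0.73), burn mice alone (-2.07) and sham mice alone (-1.35), while batch 1 alone gave -5.38.

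Antigen presentation was called in microglia in 17 of 19 genes (median log2FC -4.17). B2m, the light chain of class I molecules, ran from 875 to 1560.1 CPM (median 1072) and 38.3 to 98.7 CPM (median 72.2) (log2FC -3.93), so astrocytes held a clear level, while the class II chain H2-Aa ran from 32.7 to 305 CPM (median 67.1) in microglia and was at a median of 0 CPM in astrocytes (log2FC -10.29). The microglia library of mouse 2 was the highest for H2-Aa (305 CPM) and for Cd74 (827 CPM), the class II invariant chain. Genes of the H2 family are close copies, so the division of reads among them is uncertain.

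Lysosomal genes were less divided in the size of the fold. Of 30 genes 16 were higher in microglia, 2 in astrocytes and 12 were not called (median log2FC -1.29). In 20 of the 30 every microglia library lay above every astrocyte library, and in 2 the reverse held, beside 11.8% and 13.7% of all genes. The cathepsin Ctss (-9.68) was far higher in microglia, while Cst3, a secreted cathepsin inhibitor, had a log2FC of -1.08 with 1498 to 3197 CPM (median 2463) in astrocytes and 3819 to 6737 CPM (median 5412) in microglia. Tpp1, a lysosomal peptidase, was found at 197 to 299.6 CPM (median 267) and 219 to 324 CPM (median 271), a log2FC of 0.05 with an interval from -0.13 to 0.22. The 2 genes on the astrocyte side were Gaa, which breaks down glycogen in lysosomes (1.32), and the cathepsin Ctso (1.11). The call of Ctso was lost in batch 1 alone (0.89) and under filterByExpr (0.93), and that of Cst3 in batch 3 alone and in sham mice alone (-0.97 in both).

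Of 23 purinergic genes tested 11 were higher in astrocytes, 9 in microglia and 3 were not called. Their median log2FC of 2.21 was 1.48 in burn mice and 0.37 under filterByExpr, where 9 and 9 of 20 genes were called. In microglia stood the nucleotide receptors P2ry12, P2ry13 (-9.88) and P2rx7 (-2.87), together with Entpd1, the enzyme CD39 that degrades ATP and ADP, with 776 to 1129 CPM (median 961) against 22.1 to 44.0 CPM (median 34.6) (log2FC -4.75). Entpd2, a relative that prefers ATP, ran from 56.3 to 102 CPM (median 79.2) in astrocytes and from 0 to 0.607 CPM (median 0) in microglia (log2FC 9.56). The adenosine receptors Adora1 (6.00) and Adora2b (7.56) were higher in astrocytes and Adora3 (-8.99) in microglia. P2ry1, an ADP receptor, was higher in astrocytes at a low level, 0.356 to 18.8 CPM (median 2.64) against 0 to 1.18 CPM (median 0.125) (log2FC 4.36). Adk, which removes adenosine, was at medians of 193 and 5.03 CPM in astrocytes and microglia (log2FC 5.23).

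Signals and their receptors were spread over both cell types. Among 40 growth factor and cytokine genes 18 were higher in astrocytes, 16 in microglia and 6 were not called (median log2FC 0.41), and among 42 receptors 18 were higher in astrocytes, 18 in microglia and 6 were not called (median 0.04). Both medians turned under filterByExpr, to -0.67 with 14 and 17 genes called and to -0.18 with 16 and 18 called, and that of the receptors was also below 0 in batch 1, in batch 3 and under scaling by total count.

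**Figure D4:**
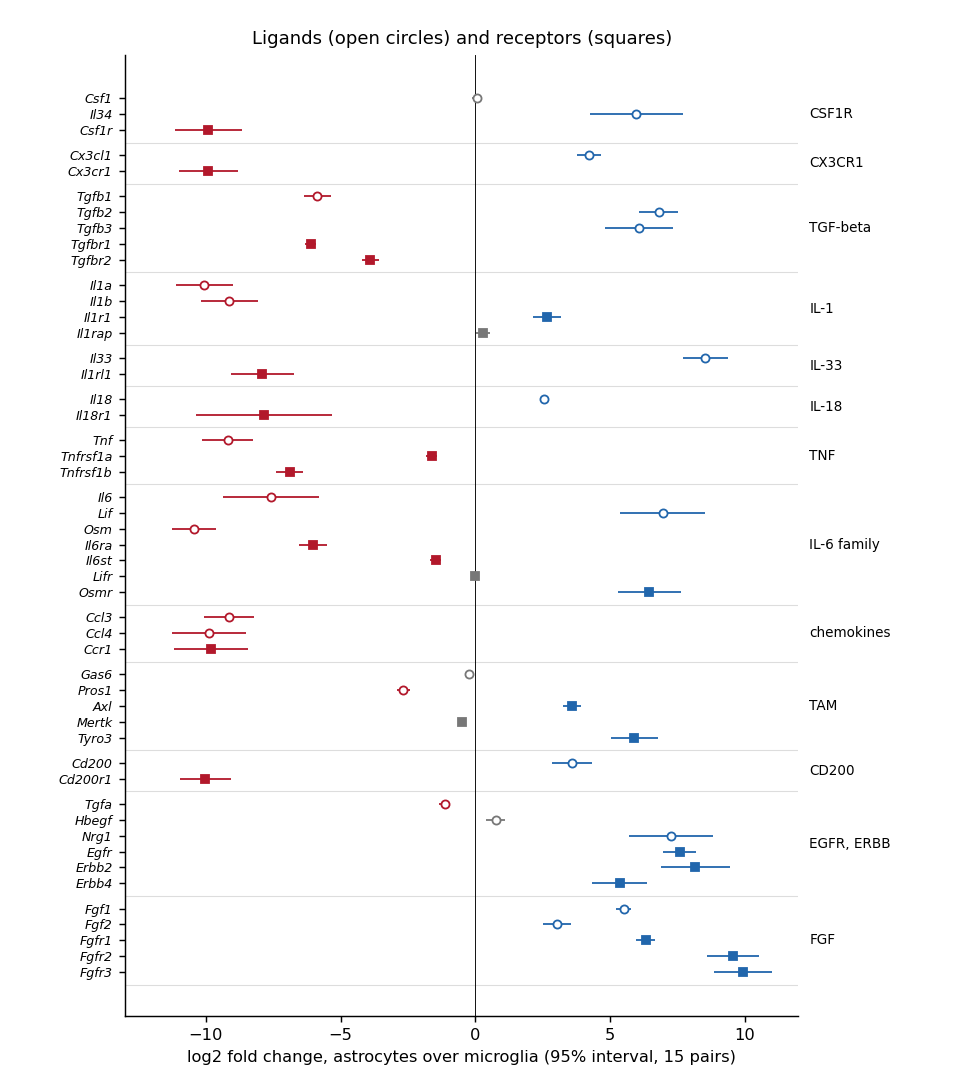
Log2FC of astrocytes over microglia with its 95% interval (horizontal axis, 15 pairs) for ligands (open circles) and receptors (squares), grouped by family and coloured by call (grey, not called). Il33 (8.54) and its receptor Il1rl1 (-7.91), and Osm (-10.45) and its receptor Osmr (6.47), lie on opposite sides of 0, and Csf1 (0.06) lies at it.

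The ligands of Csf1r differed from each other. Csf1 was found at 73.4 to 129 CPM (median 99.6) in astrocytes and 57.4 to 139.7 CPM (median 108) in microglia and was not called, with a log2FC of 0.06 and an interval from -0.13 to 0.24. Il34, the other ligand, was higher in astrocytes (log2FC 5.99 ± 0.83, SE) at a low level of 0.769 to 9.32 CPM (median 3.17), against 0 to 0.715 CPM (median 0) in microglia. The receptor itself, as given above, was higher in microglia.

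Several pairs ran from astrocyte ligand to microglial receptor. Cx3cl1, fractalkine, had 17.0 to 33.0 CPM (median 20.8) in astrocytes against 0.436 to 2.35 CPM (median 1.17) in microglia (log2FC 4.22), and its receptor Cx3cr1 had -9.90. Il33, an alarmin, had 79.98 to 142 CPM (median 114) against 0 to 1.14 CPM (median 0.393) (log2FC 8.54), and its receptor Il1rl1 was at 11.2 to 27.7 CPM (median 17.6) in microglia (log2FC -7.91). Cd200, a surface signal that restrains myeloid cells, was 3.60 and its receptor Cd200r1 -10.03. Il18 was higher in astrocytes (2.55), and Il18r1 had no count in any astrocyte library and 487 in the microglia libraries, at least 148-fold higher there.

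Other pairs ran from microglia to astrocytes. Osm, oncostatin M, ran from 29.5 to 53.3 CPM (median 43.1) in microglia and reached 0.243 CPM in the highest astrocyte library (log2FC -10.45), and Osmr ran from 21.8 to 49.7 CPM (median 36.3) in astrocytes against 0 to 1.58 CPM (median 0.573) in microglia (log2FC 6.47). Il1a (-10.06) and Il1b (-9.13) were higher in microglia and their receptor Il1r1 in astrocytes (2.67), while the shared subunit Il1rap was not called (0.30). Il1r1 was at a low level, with 11.9 and 1.95 CPM in the pooled astrocyte and microglia libraries. The astrocyte libraries also held vascular transcripts, as given below, and their part in the level of Il1r1 was not tested. Tgfa (-1.14) was higher in microglia and its receptor Egfr (7.59) in astrocytes. Tnf was different, since Tnf (-9.19) and both of its receptors, Tnfrsf1a (-1.61) and Tnfrsf1b (-6.89), were higher in microglia. Lifr, shared by LIF and oncostatin M, was not called, with an interval from -0.16 to 0.15, whereas its partner Il6st was higher in microglia (-1.47) and Lif in astrocytes (6.95).

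TGF-beta genes were split by isoform. Tgfb1 ran from 451 to 679 CPM (median 556) in microglia against 1.90 to 19.1 CPM (median 10.4) in astrocytes (log2FC -5.86), whereas Tgfb2 (6.81) and Tgfb3 (6.07) were higher in astrocytes. Of the receptors, Tgfbr1 (-6.11) and Tgfbr2 (-3.89) were higher in microglia and the coreceptor Tgfbr3 (4.29) in astrocytes. The ligands of the TAM receptors, which bridge receptors to dying cells, were Pros1, higher in microglia (-2.67), and Gas6, not called (-0.22, interval -0.36 to -0.08). The TAM receptors Axl, with 259 to 361 CPM (median 312) against 13.1 to 50.3 CPM (median 27.4) (log2FC 3.60), and Tyro3 (5.91) were higher in astrocytes, and Mertk was not called, as given above.

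Growth factors for vessels and neural cells came with a mixed pattern. Vegfa, which drives vessel growth, was at 474 to 783 CPM (median 582) in astrocytes against 3.08 to 52.5 CPM (median 17.3) in microglia (log2FC 5.23), Fgf1 (5.51), Fgf2 (3.03), Cxcl12 (4.78) and Cxcl14 (8.90) were also higher in astrocytes, and Pdgfb, which recruits pericytes (-3.84), and Igf1 (-7.66) were higher in microglia. The chemokine genes Ccl2 (-8.97), Ccl3 (-9.14), Ccl4 (-9.89), Ccl5 (-8.32), Ccl12 (-10.11) and Cxcl10 (-3.51) were higher in microglia, as was the receptor Ccr1 (-9.81). Ntrk2, the receptor of BDNF, ran from 1870.5 to 2708 CPM (median 2289) in astrocytes against 1.88 to 12.3 CPM (median 4.31) in microglia (log2FC 9.01). Ednrb, an endothelin receptor (6.47), Erbb2 (8.16), Erbb4 (5.36) and Gfra1 (7.99) were higher in astrocytes, and Il10ra (-9.38), Csf2rb (-10.25), Csf3r (-9.42), Il6ra (-6.02) and Ifngr1 (-3.15) in microglia. The interferon receptor gene Ifnar1 was at 113 to 174 CPM (median 130.3) and 113 to 163 CPM (median 135), a log2FC of 0.08 with an interval from -0.03 to 0.18.

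Immediate early and dissociation response genes were higher in microglia in 24 of 25 cases, with a median log2FC of -3.62, and 21 had no overlap. Fos ran from 1869 to 3101 CPM (median 2775) in microglia and from 67.2 to 428 CPM (median 245) in astrocytes (log2FC -3.33 ± 0.18, SE), Jun from 3398 to 4928 CPM (median 3988) and 107 to 342 CPM (median 227) (log2FC -4.17), and Egr1 from 2765 to 4749 CPM (median 3468) and 27.3 to 221 CPM (median 112) (log2FC -5.00). These genes respond within minutes to handling as well as to signals in tissue, and the part of dissociation in the difference was not tested. Hsp90aa1, a chaperone, at -0.36, was the member not called.

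Cytosolic ribosomal protein genes were higher in microglia in 30 of 47 cases and in astrocytes in 0 (median log2FC -1.12, range -2.02 to -0.08). Rplp0, a protein of the large subunit, ran from 232 to 490.0 CPM (median 294) in microglia and from 70.1 to 107 CPM (median 88.4) in astrocytes (log2FC -1.78). Since many members lay close to the limit of -1, the count moved with the setting, from 24 in sham mice alone to 41 in batch 1 alone, with 34 without mouse 13 and 37 under scaling by total count only. All 47 were below 0 in batch 3. Ribosomal protein genes have many processed copies in the genome, and how reads were divided among them is uncertain.

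Markers of other cells were counted in both gates, and their counts of calls stand beside the same 27.2% and 19.3% of all genes. The 8 mural cell markers summed to 502 to 1249 CPM in astrocyte libraries and 3.05 to 25 CPM in microglia libraries, with 8 of 8 called in astrocytes (median log2FC 6.55). The count was 7 without mouse 20, in batch 1, burn mice or sham mice alone, under filterByExpr and under scaling by total count. Pdgfrb, the receptor of pericytes, alone ran from 226 to 391 CPM (median 297) against 0 to 3.45 CPM (median 0.631). The 8 endothelial markers summed to 233 to 1525 CPM and 50.6 to 171 CPM, with 7 of 8 called in astrocytes (median 4.66), and Cldn5, a tight junction gene, ran from 28.8 to 152 CPM (median 74.2) against 0 to 6.95 CPM (median 2.72). Both kinds of vascular transcript were thus higher in the ACSA2 gate, and their part in the level of genes that vessels also express, such as Cxcl12, was not tested.

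In the microglia gate the markers of other myeloid cells stood out. The 10 border macrophage and monocyte markers summed to 104 to 573 CPM in microglia libraries and 0 to 6.17 CPM in astrocyte libraries, and all 10 were called (median log2FC -9.40). Mrc1, the mannose receptor of border macrophages, ran from 52.1 to 282 CPM (median 170.4) in microglia libraries. The 8 neutrophil markers summed to 24.5 to 419 CPM in microglia libraries, highest in mouse 16, and to at most 0.325 CPM in astrocyte libraries, and 8 of 8 were called (median -10.62, or -10.34 with the 4 genes that had no astrocyte count at their bound). Of 8 lymphocyte and natural killer cell markers 5 were called in microglia (median -6.78), with sums of 5.52 to 24.1 CPM. CD11b is carried by these myeloid cells too, and the share of them in the gate was not measured. The mice were perfused with saline before dissection, and how far this cleared blood cells was not tested. For this perfusion the paper is confident that the cells were microglia, but it does not exclude some macrophages and other CD11b-positive cells.

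Neuronal and oligodendrocyte markers varied between the astrocyte libraries. Excitatory neuron markers summed to 17.4 to 266 CPM in 14 of them and to 1581 CPM in mouse 13, and oligodendrocyte markers to 24.4 to 207 CPM and 613 CPM, with mouse 10 highest of the 14 in both. In microglia libraries these sums were 18.0 to 36.9 CPM and 53.8 to 74.4 CPM. Of 8 excitatory neuron markers 3 were called in astrocytes (median 1.63), near the 27.2% of all genes, with 2 in batch 3 alone and in sham mice alone, and 1 in microglia was added without mouse 13. There were 4 of 8 inhibitory markers (median 3.24) and 6 of 8 markers of all neurons (median 2.33) called in astrocytes. The last count was 5 without mouse 13, 3 in batch 3 alone and 3 in sham mice alone, and that of inhibitory markers was 3 in batch 3 alone, 2 in batch 1 alone and 2 under filterByExpr, which left 2 of them tested. Camk2a, a kinase of excitatory neurons, ran from 7.30 to 1372 CPM (median 27.8) in astrocytes and 10.1 to 27.9 CPM (median 14.8) in microglia (log2FC 1.39), with 12 of 15 mice higher in astrocytes, a call that was lost in batch 3 alone and in sham mice alone. Of 8 oligodendrocyte markers 6 were called in astrocytes and 1 in microglia (median 3.77), and of 8 oligodendrocyte precursor markers 7 in astrocytes (median 3.16). In astrocytes these counts were 5 and 6 in batch 3 alone and 5 and 5 in sham mice alone. That of the precursor markers was also 5 in burn mice alone. The myelin gene Mag was the marker called in microglia, with 12.9 to 24.0 CPM (median 17.1) in every microglia library against 0 to 10.5 CPM (median 2.26) in astrocytes (log2FC -3.45). Mbp, the myelin basic protein gene, was not called, at 12.3 to 386 CPM (median 49.4) and 36.1 to 54.9 CPM (median 41.8). Of the red blood cell genes 2 of 5 were tested, and Alas2 was called in astrocytes at 2.20 CPM or less, a call that was lost with DESeq2 and in sham mice alone.

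Each library also held the markers of the other cell type at a low level. The 18 microglia markers summed in the astrocyte library of a mouse to a median of 0.563% of their sum in its microglia library (range 0.363 to 0.895%, 15 mice), and the 16 astrocyte markers in the microglia library to a median of 0.550% of their sum in the astrocyte library (0.416 to 0.793%). Sall1 stood at a median of 9.23% of its microglial level in astrocytes and Slc1a3 at 2.62% of its astrocytic level in microglia, while 17 of 18 microglia markers and 15 of 16 astrocyte markers had medians under 1%. Leaving out Sall1, a choice made after seeing the data, the first percent was 0.256%, and without Slc1a3, likewise, the other was 0.205%. Taken as the median over genes in place of the sum, the 2 percents were 0.140% and 0.167%. Aif1, a microglial marker that binds calcium, had a count in 2 of the 15 astrocyte libraries.

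These percents moved with batch. In the 5 mice of batches 1 and 2 that of microglia markers in astrocyte libraries was 0.363 to 0.446%, and in the 10 mice of batch 3 it was 0.489 to 0.895%, without overlap. With Sall1 left out the medians were 0.122% and 0.379%. The percent of astrocyte markers in microglia libraries had medians of 0.451% and 0.564%, with ranges that overlapped. A higher median in batch 3 was seen in 17 of the 18 microglia markers and 15 of the 16 astrocyte markers. The median log2FC of both marker lists was nearer to 0 in batch 3 than in batch 1, as given above, though not every marker moved so. The log2FC of Csf1r was -12.39 in batch 1 and -9.06 in batch 3, and that of Slc1a2 9.58 and 8.39.

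**Figure D5:**
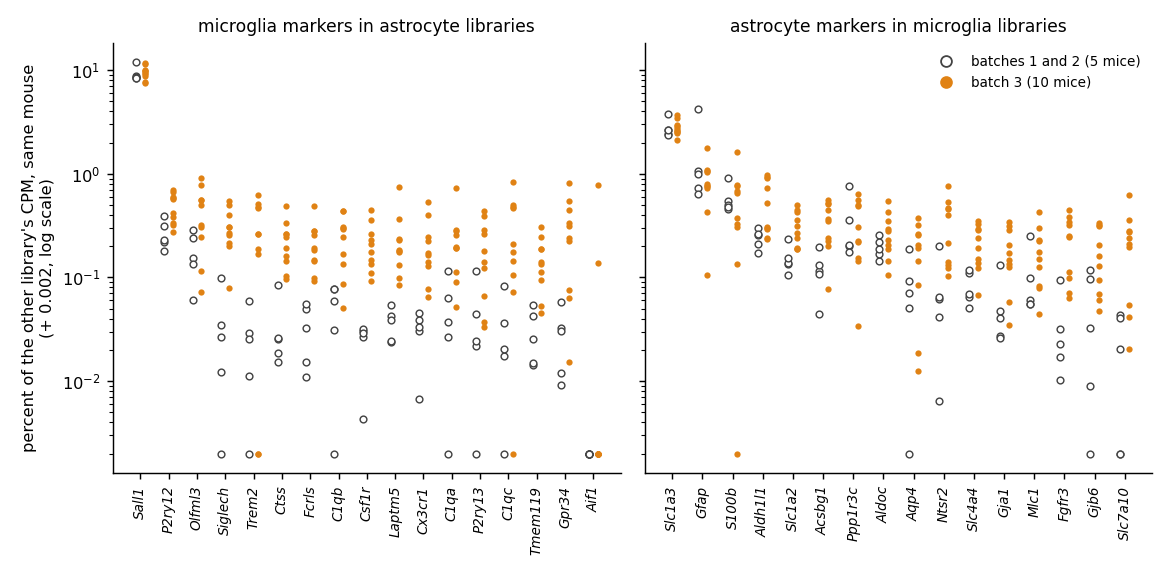
Level of each marker in the library of the other gate, as a percent of its CPM in the library of the same mouse that was sorted for it (log axis, 0.002 added so that 0 can be drawn), for 17 of the 18 microglia markers (left) and the 16 astrocyte markers (right), with open points for the 5 mice of batches 1 and 2 and filled points for the 10 of batch 3. Sall1 (9.23%) and Slc1a3 (2.62%) have the highest medians of their panels, the highest value of Gfap (4.21%) lies above that of Slc1a3 (3.78%), and most microglia markers lie higher in batch 3.

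Whether the difference between the cell types itself depended on batch was tested with an interaction term. At the same thresholds 45 of 30696 genes were called, or 0.147%, and 2333 had an unadjusted p under 0.05. Of the 45, 28 had a positive term, 23 of them genes higher in microglia, and 17 a negative term, 14 of them genes higher in astrocytes. In these 23 and 14 genes the difference between the types was smaller in batch 3. The genes of smallest p included Csf1r (term 3.35, SE 0.46) and Lpcat2, an enzyme of phospholipid remodelling (3.11, SE 0.44), each with an adjusted p of 0.00913 by edgeR's quasi-likelihood test. Csf1r ran from 0.197 to 2.7 CPM in the astrocyte libraries of batches 1 and 2 and from 7.65 to 35.5 CPM in those of batch 3, and from 8176 to 9727 and 5358 to 8419 CPM in the microglia libraries. DESeq2 called 248 genes for the same term and the fit without the mouse as a block 141, and without mouse 2 the count was 11. Batch 3 and the other batches also differ in the share of burn mice, with 5 of 10 and 3 of 5.

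Whether the difference between the cell types depended on the burn was asked in the same way. By edgeR's quasi-likelihood test 0 of 30696 genes were called, or 0%, with 1036 at an unadjusted p under 0.05 and a smallest adjusted p of 1, and DESeq2 called 31. A gene that did not pass is not shown to lack such a term. The genes of smallest p were Fam53a (term 0.73, SE 0.15), Gramd1c (-4.63, SE 0.97) and Myo10 (0.93, SE 0.20), none of which passed. Myo10, a motor protein of filopodia, was at 452 to 532 CPM in astrocytes of burn mice and 404 to 503 CPM in sham mice, and at 2.91 to 6.76 and 6.48 to 12.2 CPM in microglia. The astrocyte and microglia marker lists were called in full in burn mice alone and in sham mice alone.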

How the data were processed

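RNA was sequenced from ACSA2-positive (18 libraries) and CD11b-positive cells (16) sorted from mouse cortex. Libraries were made with a stranded total RNA kit after removal of ribosomal RNA. The deposited tables hold raw counts per gene, which the authors made by trimming with fastp, aligning with STAR to GRCm39 and counting in R with GenomicAlignments; the submitters' processing notes also name mm10. The counter's use of strand is not given in the sources used here, so reads of antisense or overlapping genes cannot be told apart. The authors' normalised tables and those of neurons were not used here. Of 56980 gene identifiers, 52073 matched a symbol in the gene name table. No gene coordinates are printed other than those of the RefSeq promoter table (GRCm38.p6).

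Genes with 10 or more counts over the 30 libraries were tested with edgeR 4.0.16 (R 4.3.3): TMM scaling, a quasi-likelihood fit with the mouse as a block, and Benjamini-Hochberg adjustment. SE is the size of the log2FC divided by the square root of F. Interaction terms of cell type with treatment and with batch 3 used the same block. CPM divides counts by the library total. Libraries of 1 mouse are paired because they come from the same animal. Over 12750 genes their deviations from the means of the types correlated at -0.0760 to 0.278 (median 0.0890), with 6 of 15 over 0.1, and no 2 libraries held identical counts. Batches came from the study's supplementary sample sheet. Steps were tested on simulated data. Alternatives were DESeq2 1.42.0, other scalings, filters, thresholds and sets of mice.

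Genes were named by rule: markers, gate antigens, per direction the 10 most abundant genes at an absolute log2FC of 3 or more and the 5 of largest fold at 50 CPM or more, the 3 most abundant called genes per direction of each list, called ligands and receptors, and the 3 genes of smallest p per interaction. The others named were chosen after their values were seen. Values of some of these genes are not reported here. Members and lists were chosen with earlier results of these data known.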

Additional observations from a re-analysis of the deposited data

Results flagged for a closer look

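In groups of burn or sham mice, 80 sets of values were searched for a library whose gap to its nearest neighbour was large for the range of its group (Dixon's test at 95%). This was so in 16 of them. The test's rate of about 1 in 20 by chance holds for independent, normally distributed values. These sets overlap, mix batches and are often skewed, so the 16 cannot be set against that rate. The sets concern marker sums and the markers themselves, and no list of functional genes was searched. In sham mice, the astrocyte library of mouse 13 stood apart in 3 lists: excitatory neuron markers summed to 1581 CPM with the next library at 96.6 CPM, pan-neuronal markers to 246 CPM with the next at 58.7 CPM, and oligodendrocyte markers to 613 CPM with the next at 144 CPM. Mouse 20 stood apart from the other burn mice on both sides. Its microglia library held astrocyte markers at 377 CPM with the next at 253 CPM, which was 0.793% of their astrocyte level with the next at 0.558%, and Slc1a2 at 96.7 CPM with the next at 54.8 CPM. Its astrocyte library held Itgam at 4.62 CPM with the next at 1.17 CPM. The next library is always that of the same treatment group. In sham mice of batch 3, astrocyte markers reached 343 CPM (mouse 19) and 0.738% (mouse 17) in microglia libraries. Slc1a2 reached 93.3 CPM there (mouse 16), so these sham values lay close to those of mouse 20.

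Other burn libraries that stood apart were the astrocyte libraries of mouse 7 in astrocyte markers (54029 CPM, next 47563 CPM), of mouse 10 in excitatory neuron markers (266 CPM, next 131 CPM) and in neutrophil markers (0.325 CPM, next 0 CPM), and of mouse 24 in pan-neuronal markers (133 CPM, next 63.2 CPM). Sham mouse 8 had a higher sum of astrocyte markers (56324 CPM), and sham mouse 13 had higher sums of excitatory and pan-neuronal markers, as given above. Among sham mice the libraries that stood apart were the astrocyte libraries of mouse 17 in neutrophil markers (0.312 CPM, next 0.0352 CPM) and mouse 16 in lymphocyte and natural killer cell markers (1.70 CPM, next 0.352 CPM). The microglia library of mouse 16 stood apart in neutrophil markers (419 CPM, next 128 CPM), and that of mouse 8 in excitatory (36.9 CPM, next 27.4 CPM) and inhibitory neuron markers (1.75 CPM, next 1.09 CPM). The values under 1 CPM rest on few counts.

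The difference between astrocytes and microglia differed between batch 3 and the other batches in 45 genes by the interaction test, among them Csf1r with a term of 3.35 and Lpcat2 with 3.11. The microglial markers in astrocyte libraries were higher in batch 3 over the same mice (medians 0.694% against 0.409%), and their part in these terms was not tested.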

How the results depend on the processing

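The number of genes higher in astrocytes fell from 8340 to 5430 under edgeR's filterByExpr, which tests fewer genes. The median log2FC of growth factors and cytokines turned from 0.41 to -0.67 there and that of their receptors from 0.04 to -0.18. The receptors also had medians of -0.05 in batch 3, -0.06 in batch 1 and -0.04 under scaling by total count. Without the mouse as a block, 9872 and 6658 genes were higher in astrocytes and microglia (8188 and 5622 shared with the paired calls), the batch term was called for 141 genes in place of 45 (41 shared), and the treatment term stayed at 0. DESeq2 called 31 genes for the treatment term and 248 for the batch term, and the treatment term was called for 1 gene with the batch term in the same fit; the cause was not tested. Leaving out 1 mouse at a time gave 7980 to 8342 genes higher in astrocytes, 5703 to 5875 in microglia, 0 to 0 for the treatment term and 11 to 58 for the batch term. The last was 11 without mouse 2 or 8, 23 without 16, 17 or 20, 26 without 10, 27 without 7, 15 or 23, 28 without 13 or 21 and 29 without 18, so this count rests on single mice. The microglia markers in astrocyte libraries were at 0.563%, with 0.551 to 0.580% leaving out 1 mouse, 0.140% as the median over genes and 0.256% without Sall1. The astrocyte markers in microglia libraries were at 0.550%, with 0.543 to 0.552%, 0.167% and, without Slc1a3, 0.205%. The 2 trimmed lists were chosen after seeing the data. Of 252 named and called genes, 234 kept their call and direction in each of up to 26 settings in which they were tested, 18 lost it in at least 1 and none reversed. Depth limited the lower side of many folds and, for genes with few counts such as Htr2b, both sides.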
